A study of Mus musculus with 6 samples.

Results

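Lipid droplet proteins sit on, or help to build, the fat stores inside cells. The set described here held 10 genes: the perilipins Plin1, Plin2, Plin3, Plin4 and Plin5, the CIDE genes Cidea and Cidec, the fat storage-inducing transmembrane genes Fitm1 and Fitm2, and Hilpda. All transcripts that the GENCODE M21 annotation gives to these genes were taken, 30 in number, and 29 of them had a read. They belong to 10 of the 21730 genes with a read in the series.

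The libraries came from interscapular brown adipose tissue, a depot between the shoulder blades that burns fat for heat. All donors were male wild type C57BL/6N mice, 20 weeks old. Cold mice 4, 11 and 15, 3 in all, spent 24 h at 4 °C, each in a cage of its own, and the 3 ctrl mice, numbered 2, 9 and 14, lived at 22 to 24 °C. The labels do not say whether the ctrl mice were also caged singly, so cold and single housing cannot be told apart if they were not. Poly(A) RNA of whole tissue was read as long direct cDNA on nanopore flow cells, 1 library per mouse, so that each read stands for 1 cDNA strand.

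Brown adipocytes keep their triglyceride in many small droplets. Perilipins coat these droplets and set how far lipases can reach the fat, CIDE proteins gather at the contact between droplets and move lipid from the smaller to the larger, and FIT proteins of the endoplasmic reticulum help new droplets to bud. In the cold, noradrenaline starts lipolysis in this tissue, the freed fatty acids fuel heat production through the uncoupling protein, and the droplets are drawn down and refilled at the same time.

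Libraries held 1657985 to 2082203 reads in cold mice and 1829442 to 2238056 reads in ctrl mice. At these depths 3 reads amount to 1.40 to 1.75 CPM, the unit used below, which is a read count scaled to a common library size. Ucp1, the uncoupling protein that marks brown adipocytes, stood at 13665 to 13889 CPM in cold mice and at 9700 to 11228 CPM in ctrl mice, so the label of the tissue was borne out although 1 passage of the protocols names another fat depot. Lep, a marker of white fat, was at 2.33 to 7.51 CPM in cold mice and at 2.33 to 24.5 CPM in ctrl mice. Of other white fat markers, Retn was at 91.7 to 127 CPM in cold mice and at 49.8 to 64.8 CPM in ctrl mice. Npr3 was at 184 to 190 CPM in cold mice and at 44.0 to 68.4 CPM in ctrl mice. Nnat, Agt and Wfdc21 were at 16.0 CPM or below in every mouse. Pairs of libraries were compared by a chi-square over genes, which per degree of freedom came to 11.1 to 19.3 between cold and ctrl mice and to 2.11 to 3.52 within a group, above the value of about 1 that sampling alone gives.

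The comparison asked which of these genes differed in brown fat after a day in the cold. Plin5, Plin2, Cidec and Fitm2 were higher in cold mice, by 1.29 to 1.48-fold, and Plin4 was lower by 1.36-fold. Plin1, Plin3, Cidea and Hilpda did not pass the test, and Fitm1 had too few reads to enter it. The 10 genes together took 0.606 to 0.627% of the reads in cold mice and 0.483 to 0.497% in ctrl mice. The test was edgeR's quasi-likelihood test on gene counts with adjusted p-values called at 0.05. It called 5 of the 9 tested members, where 19.5% of the 8684 tested genes were called. Of the 5, 4 were higher, where 9.75% of all tested genes were, and 1 was lower, where 9.77% were. In 6 of the 9 the cold and ctrl mice did not overlap, as was the case in 35.1% of all tested genes. The median log2 fold change of the 9 was 0.16, and that of all tested genes 0.00.

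**Figure D1:**
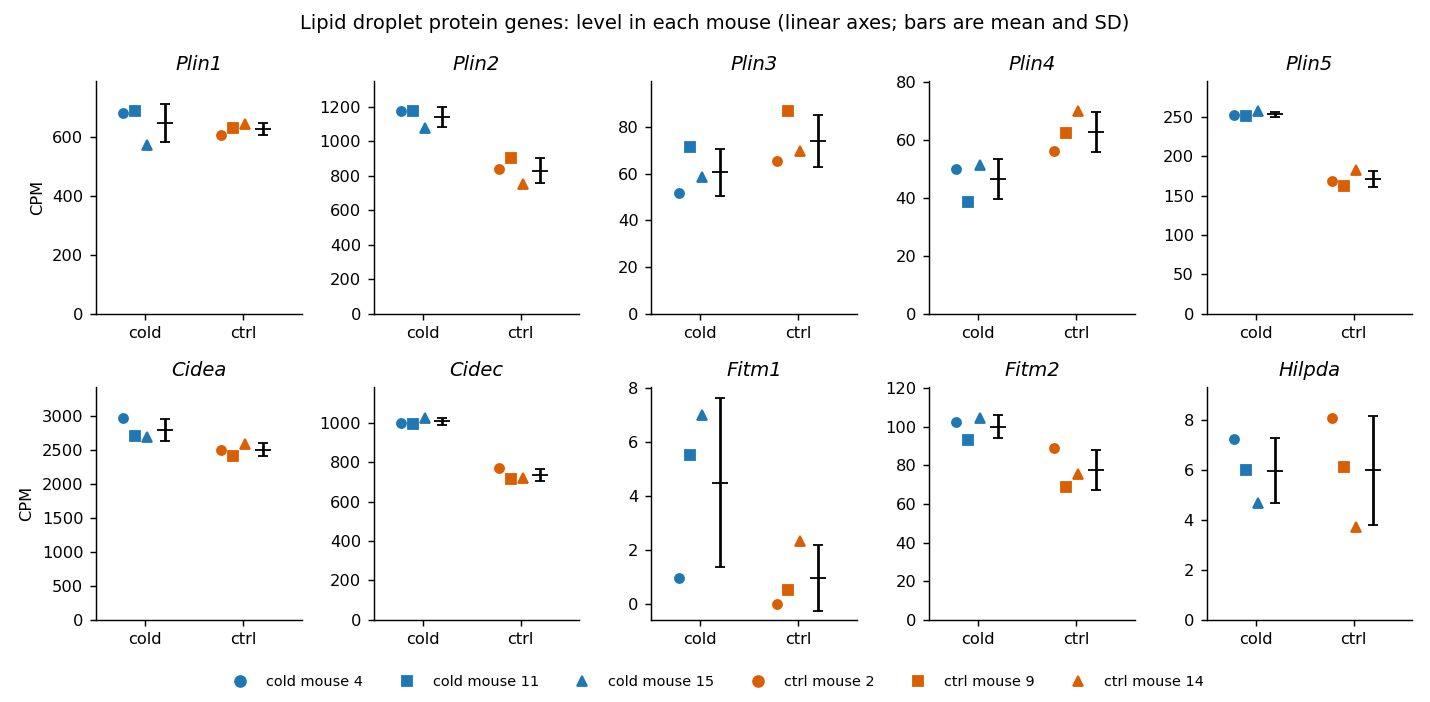
Level of each of the 10 genes in CPM on linear axes, with 1 symbol per mouse, cold mice at the left and ctrl mice at the right of each panel, and the mean with its SD (n = 3) as a black bar. The cold mice lay above all ctrl mice for Plin2, Plin5, Cidea, Cidec and Fitm2 and below all of them for Plin4. The Fitm1 axis runs below 0 only to show the symbol at 0 and the full bar.

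The called members changed less than most other called genes. The median absolute log2 fold change was 0.66 over the 1695 called genes and 0.26 over all tested genes, called or not. The called members, at absolute values of 0.37 to 0.56, lay between these medians. Of the called genes, 414 changed by more than 2-fold, whereas no tested member did. In whole tissue, more RNA per cell and more cells of a type cannot be told apart.

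Plin1 is the main coat protein of fat cell droplets, and when protein kinase A phosphorylates it, it releases the lipase activator ABHD5. The gene lies at chr7:79720218-79732903 (GRCm38, minus strand). It had 683, 687 and 574 CPM in cold mice 4, 11 and 15, and 606, 631 and 644 CPM in ctrl mice 2, 9 and 14. The groups overlapped, with cold mouse 15 below every ctrl mouse and the other two cold mice above every one. The log2 fold change was 0.05 ± 0.08 (SE, edgeR adjusted p = 0.737), with a 95% interval of -0.11 to 0.20.

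Plin5 is the perilipin of oxidative tissues, where it binds the lipase PNPLA2 and its activator ABHD5 and ties droplets to mitochondria. The gene, at chr17:56111601-56117596 (GRCm38, minus strand), had 252, 251 and 257 CPM in cold mice 4, 11 and 15, and 168, 163 and 183 CPM in ctrl mice 2, 9 and 14. The cold mice lay within a few CPM of each other and all stood above the highest ctrl mouse. Plin5 was 1.48-fold higher in the cold, with a log2 fold change of 0.56 ± 0.08 (SE, edgeR adjusted p = 4.79e-05), the largest rise among the 9 tested members. With each flow cell analysed alone, the log2 fold change was 0.63 on flow cell 1 and 0.39 on flow cell 2.

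The annotation gives Plin5 a pair of starts, 298 nt apart, each with a first exon of its own and with the same coding sequence of 1389 nt. Plin5-201 uses the upstream start and Plin5-202 the downstream one. The RefSeq windows before them (GRCm38.p6, 5′ to 3′ on the minus strand, without bases that belong to an annotated exon) are printed because both transcripts changed. Capitals mark AGGTCA on either strand, the unit that nuclear receptors such as the PPARs bind in direct repeat.
Plin5 upstream, chr17:56117597-56117798: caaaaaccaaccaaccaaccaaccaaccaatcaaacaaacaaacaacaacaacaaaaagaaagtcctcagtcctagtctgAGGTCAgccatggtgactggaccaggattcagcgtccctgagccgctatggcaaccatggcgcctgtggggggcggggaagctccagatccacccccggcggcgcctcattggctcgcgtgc
Plin5 downstream, chr17:56117299-56117501: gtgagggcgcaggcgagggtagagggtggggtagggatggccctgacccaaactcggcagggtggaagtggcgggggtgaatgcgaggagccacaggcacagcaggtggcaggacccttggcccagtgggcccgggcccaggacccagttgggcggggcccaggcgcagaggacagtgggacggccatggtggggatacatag
The AGGTCA unit occurs in the upstream window and not in the downstream one.

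Plin5-202 had 136, 131 and 138 CPM in cold mice 4, 11 and 15, and 87.1, 83.8 and 93.5 CPM in ctrl mice 2, 9 and 14. Its log2 fold change was 0.61 (edgeR adjusted p = 8.9e-05 over 11699 tested transcripts). Plin5-201 had 121, 126 and 127 CPM in cold mice and 86.5, 84.4 and 94.9 CPM in ctrl mice. Its log2 fold change was 0.49 (edgeR adjusted p = 0.00132), but flow cell 2 alone did not call it (log2 fold change 0.33, edgeR adjusted p = 0.176). For neither transcript did cold and ctrl mice overlap. Plin5-202 took 52.9, 51.1 and 52.0% of the gene's reads in cold mice and 50.2, 49.8 and 49.6% in ctrl mice, a difference of 2.12 percentage points at the smallest p that 3 against 3 mice allow (exact permutation test, two-sided, p = 0.1). The transcripts share 1885 nt and have 101 nt each of their own. How reads that stop short of the first exon were shared out is not given in the sources used here.

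Plin2, formerly adipophilin, coats droplets in nearly every cell type, and its protein is stable only while bound to lipid. Plin2, at chr4:86648386-86670060 (GRCm38, minus strand), had 1174, 1174 and 1075 CPM in cold mice 4, 11 and 15, and 838, 901 and 753 CPM in ctrl mice 2, 9 and 14. The lowest cold mouse stood above the highest ctrl mouse. Plin2 was 1.37-fold higher in the cold, with a log2 fold change of 0.46 ± 0.07 (SE, edgeR adjusted p = 0.000119). The promoter window of Plin2 holds the AGGTCA unit too, read on the opposite strand and set in capitals. This unit is found in 14% of all promoters, and the windows of Plin4 and Fitm2, which were also called, lack it.
Plin2, chr4:86670061-86670309: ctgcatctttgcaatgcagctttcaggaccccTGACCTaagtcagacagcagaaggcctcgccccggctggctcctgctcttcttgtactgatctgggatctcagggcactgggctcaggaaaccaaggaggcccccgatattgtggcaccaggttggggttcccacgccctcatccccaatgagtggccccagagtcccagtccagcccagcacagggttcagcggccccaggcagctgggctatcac

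Nearly all Plin2 reads belonged to Plin2-201, the full-length transcript, with 98.1, 98.5 and 97.3% in cold mice and 97.3, 96.9 and 96.7% in ctrl mice. Cold mouse 15 overlapped with ctrl mouse 2 in this share (exact permutation test, two-sided, p = 0.2). Plin2-201 alone was 1.38-fold higher in the cold (edgeR adjusted p = 4.4e-05).

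Plin3 is a mostly cytosolic perilipin that moves onto newly made droplets. Plin3, at chr17:56277476-56292873 (GRCm38, minus strand), had 51.7, 71.6 and 58.8 CPM in cold mice 4, 11 and 15, and 65.4, 86.8 and 69.8 CPM in ctrl mice 2, 9 and 14. The groups overlapped through cold mouse 11. The log2 fold change was -0.29 ± 0.14 (SE, edgeR adjusted p = 0.152).

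Plin4 binds the surface of small, young droplets in fat cells through a long run of repeats. The gene lies at chr17:56100591-56109803 (GRCm38, minus strand), next to Plin5. It had 49.8, 38.6 and 51.2 CPM in cold mice 4, 11 and 15, and 56.1, 62.3 and 69.8 CPM in ctrl mice 2, 9 and 14. Every cold mouse stood below every ctrl mouse. Plin4 fell by 0.44 ± 0.13 on the log2 scale (SE, edgeR adjusted p = 0.0244). The call was lost with DESeq2 (adjusted p = 0.274), without cold mouse 11 (edgeR adjusted p = 0.149), without ctrl mouse 14 (edgeR adjusted p = 0.129) and on flow cell 1 alone (edgeR adjusted p = 0.155).

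The pair of Plin4 transcripts start 1 nt apart, share 5734 nt and have 21 and 22 nt of their own. Plin4-202 had 21.2, 22.0 and 24.6 CPM in cold mice and 31.6, 31.6 and 37.4 CPM in ctrl mice. The groups did not overlap, and Plin4-202 fell by 0.58 on the log2 scale (edgeR adjusted p = 0.0188). That call was lost without the filter on low counts, without cold mouse 4, cold mouse 11 or ctrl mouse 14, and on flow cell 2 alone, with edgeR adjusted p-values of 0.0606, 0.0783, 0.0624, 0.105 and 0.26. Plin4-201 did not pass the test, at a log2 fold change of -0.33 (edgeR adjusted p = 0.278), and was called on flow cell 2 alone (edgeR adjusted p = 0.048). Its share of the gene's reads was 44.2 to 58.3% in cold mice and 45.4 to 50.8% in ctrl mice. An unequal change of the pair was not called (edgeR diffSpliceDGE, unadjusted p = 0.56). How reads were shared out between such similar transcripts is not given in the sources used here.

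Cidea is the CIDE gene most typical of brown fat, where its protein moves lipid between droplets. It had 2984, 2713 and 2690 CPM in cold mice 4, 11 and 15, and 2508, 2410 and 2601 CPM in ctrl mice 2, 9 and 14. The lowest cold mouse stood above the highest ctrl mouse. The log2 fold change was 0.16 ± 0.06 (SE, edgeR adjusted p = 0.0945), with a 95% interval, not adjusted for the number of genes, of 0.03 to 0.28. Cidea passed the test on flow cell 2 alone (log2 fold change 0.23, edgeR adjusted p = 0.0139) and with a length trend as an offset (log2 fold change 0.23, edgeR adjusted p = 0.0107).

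Cidec, known in mouse as Fsp27, drives droplet fusion and the large droplets of white fat. The gene lies at chr6:113424634-113435760 (GRCm38, minus strand). It had 999.6, 995 and 1027 CPM in cold mice 4, 11 and 15, and 772, 712 and 721 CPM in ctrl mice 2, 9 and 14. The groups stood far apart beside the spread within them. Cidec was 1.37-fold higher in the cold, with a log2 fold change of 0.45 ± 0.07 (SE, edgeR adjusted p = 4.46e-05).

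Cidec had 4 transcripts with reads, and nearly all reads fell on 3 of them. Cidec-202 and Cidec-201 start 4 nt apart, share the coding sequence and differ by 17 nt, whereas Cidec-203 starts 996 nt downstream in its own first exon and ends 923 nt earlier. Its coding sequence opens 10 codons before the start codon of Cidec-202. The first bases of both coding sequences are printed to show this, from GENCODE M21 (GRCm38), with capitals for the start codon that both contain.
Cidec-203: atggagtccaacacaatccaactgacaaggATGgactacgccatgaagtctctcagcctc
Cidec-202: ATGgactacgccatgaagtctctcagcctc
The RefSeq windows before both starts (GRCm38.p6, 5′ to 3′ on the minus strand) hold no AGGTCA unit.
Cidec upstream, chr6:113435761-113436010: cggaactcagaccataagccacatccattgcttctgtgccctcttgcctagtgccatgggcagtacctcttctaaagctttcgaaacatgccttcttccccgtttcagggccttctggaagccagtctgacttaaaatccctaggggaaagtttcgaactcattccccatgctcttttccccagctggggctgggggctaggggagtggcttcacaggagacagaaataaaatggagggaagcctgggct
Cidec downstream, chr6:113434765-113435014: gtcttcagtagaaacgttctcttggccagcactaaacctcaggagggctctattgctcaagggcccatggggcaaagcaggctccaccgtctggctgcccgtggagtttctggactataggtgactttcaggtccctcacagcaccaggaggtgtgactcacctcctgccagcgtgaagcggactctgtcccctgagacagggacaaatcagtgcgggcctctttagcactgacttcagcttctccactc

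Cidec-202 was the most-read form, with 605, 636 and 676 CPM in cold mice 4, 11 and 15, and 475, 448 and 439 CPM in ctrl mice 2, 9 and 14. It was 1.41-fold higher in the cold (edgeR adjusted p = 2.5e-05), and no cold mouse overlapped with a ctrl mouse. Cidec-201 had 318, 289 and 297 CPM in cold mice and 248, 216 and 228 CPM in ctrl mice, 1.31-fold higher in the cold (edgeR adjusted p = 0.00206), and on flow cell 2 alone it was not called (edgeR adjusted p = 0.0713). The form with the downstream start, Cidec-203, had 98.2, 92.8 and 84.0 CPM in cold mice and 71.6, 69.6 and 73.8 CPM in ctrl mice. It was 1.28-fold higher in the cold (edgeR adjusted p = 0.0306), a call lost in 7 of 11 alternatives, with adjusted p-values of up to 0.376. These 3 forms were higher in every cold mouse than in any ctrl mouse. The fourth form, Cidec-204, had 1, 1 and 1 reads in cold mice and 3, 4 and 3 reads in ctrl mice, too few to enter the test.

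**Figure D2:**
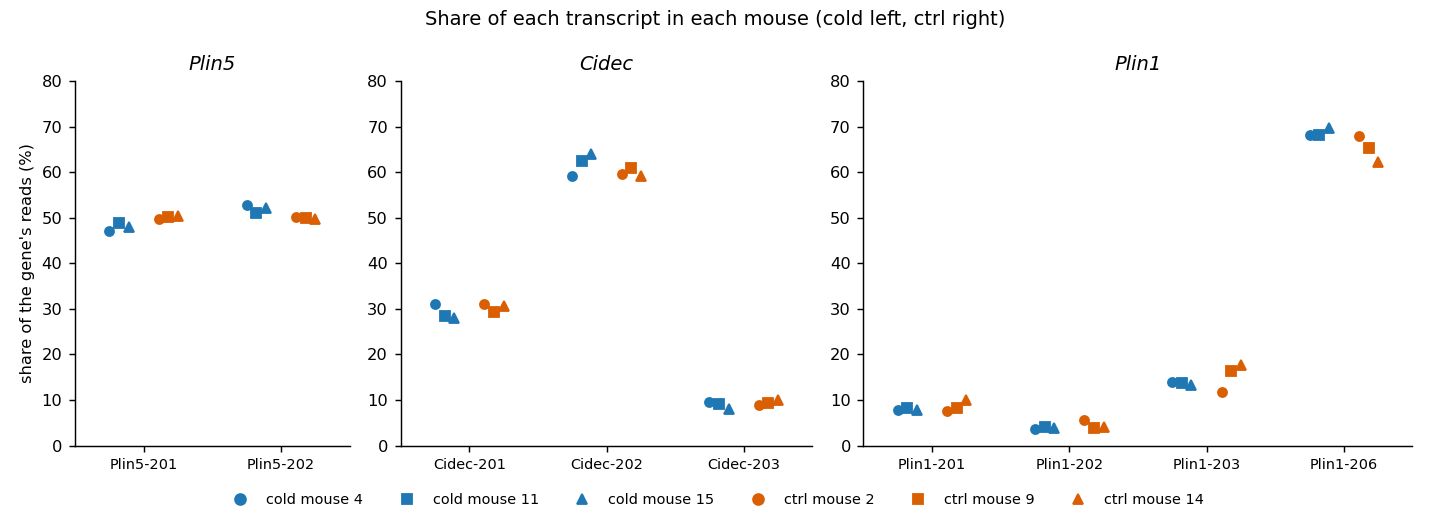
Share of each transcript in the reads of its gene in percent, for Plin5, Cidec and the 4 Plin1 transcripts with the most reads, with 1 symbol per mouse and cold mice left of ctrl mice. Plin5-201 and Plin5-202 each took close to 50% in all 6 mice, and Cidec-202 took 59.2 to 63.9% in cold mice and 59.2 to 60.9% in ctrl mice.

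Transcript usage was tested in the 5 member genes with more than 1 tested transcript, and none was called by edgeR's diffSpliceDGE, against 5 of 2568 genes (0.195%). The unadjusted p was 0.0057 for Plin2, whose adjusted p was 0.472, and at least 0.46 for Plin1, Plin4, Plin5 and Cidec. At the level of single transcripts, edgeR called 8 of the 21 tested member transcripts, where 16.3% of all tested transcripts were called. Of the 8, 7 were higher, where 8.33% of all were, and 1 was lower, where 7.95% were. The 7 comprised Plin2-201, Fitm2-201, both Plin5 and 3 Cidec transcripts.

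Plin1 had 7 transcripts with reads. Plin1-206, which has the longest 3′ end, took 68.2, 68.2 and 69.6% of the gene's reads in cold mice 4, 11 and 15, and 67.8, 65.4 and 62.1% in ctrl mice 2, 9 and 14. The shares did not overlap (exact permutation test, two-sided, p = 0.1, the smallest that 3 against 3 mice allow). Plin1-203, a short form of 3 exons with a coding sequence of 261 nt in place of 1551 nt, took 13.7 ± 0.308% in cold mice and 15.3 ± 3.11% in ctrl mice (SD, n = 3 each). None of the 7 changed in level by the test.

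Fitm2 encodes the widely expressed FIT protein, which the endoplasmic reticulum needs to release droplets to the cytosol. Fitm2, at chr2:163466379-163472629 (GRCm38, minus strand), had 102, 93.2 and 105 CPM in cold mice 4, 11 and 15, and 89.1, 68.9 and 75.4 CPM in ctrl mice 2, 9 and 14. The lowest cold mouse stood a little above the highest ctrl mouse. Fitm2 was 1.29-fold higher in the cold, with a log2 fold change of 0.37 ± 0.11 (SE, edgeR adjusted p = 0.0234). DESeq2 did not call it (adjusted p = 0.192), nor did flow cell 2 alone (log2 fold change 0.21, edgeR adjusted p = 0.453). It was also lost without cold mouse 4, cold mouse 15, ctrl mouse 9 or ctrl mouse 14, with edgeR adjusted p-values of 0.0828, 0.0679, 0.128 and 0.0912. A gene on the opposite strand, 2310001K24Rik, overlaps it by 227 nt but had only 26 reads beside the 1029 of Fitm2.

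Fitm1 encodes the FIT protein of skeletal muscle. The gene lies at chr14:55575617-55576954 (GRCm38, plus strand). It had 2, 11 and 12 reads in cold mice 4, 11 and 15, and 0, 1 and 5 reads in ctrl mice 2, 9 and 14. A count of 0 in ctrl mouse 2 allows a level of up to 1.74 CPM. Cold mouse 4 lay among the ctrl mice, and the groups overlapped. With the filter on low counts left out, the log2 fold change was 2.02 ± 0.59 (SE, edgeR adjusted p = 0.011). With the filter kept, the gene entered the edgeR fits without cold mouse 4, ctrl mouse 14, ctrl mouse 2 or ctrl mouse 9, at adjusted p-values of 0.0159, 0.0332, 0.229 and 0.232. DESeq2 gave an adjusted p of 0.256.

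Markers of skeletal muscle, which lies next to this depot, moved with Fitm1. Their summed level over 15 genes was 383, 1623 and 3957 CPM in cold mice 4, 11 and 15, and 199.6, 552 and 809.6 CPM in ctrl mice 2, 9 and 14. Cold mice 11 and 15 were highest in both measures and ctrl mouse 2 lowest in both. Of the 13 muscle markers tested, edgeR called none (0 at an unadjusted p under 0.05) and DESeq2 called 1, and their median log2 fold change was 2.18. The part of muscle in the Fitm1 reads was not tested. For the members that were called, a fit with the muscle markers as a covariate gave log2 fold changes of 0.54 for Plin5, 0.52 for Plin2, 0.47 for Cidec, 0.44 for Fitm2 and -0.50 for Plin4, each still called.

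**Figure D3:**
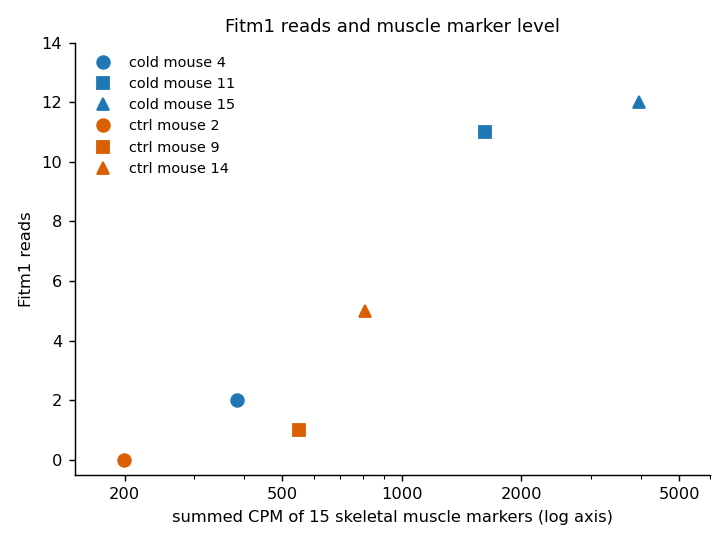
Fitm1 reads in each mouse against the summed level of 15 skeletal muscle markers in CPM on a log axis, with cold mice in blue and ctrl mice in orange. Cold mice 11 and 15 had 11 and 12 reads and the highest marker levels, 1623 and 3957 CPM.

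Hilpda encodes a small droplet protein that inhibits the lipase PNPLA2 and is induced by low oxygen. Hilpda, at chr6:29272488-29275446 (GRCm38, plus strand), had 15, 12 and 8 reads in cold mice 4, 11 and 15, and 14, 12 and 8 reads in ctrl mice 2, 9 and 14. The groups covered the same range. The log2 fold change was 0.05 ± 0.35 (SE, edgeR adjusted p = 0.942), and its 95% interval of -0.64 to 0.74 leaves room for a change as large as that of any called member.

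**Figure D4:**
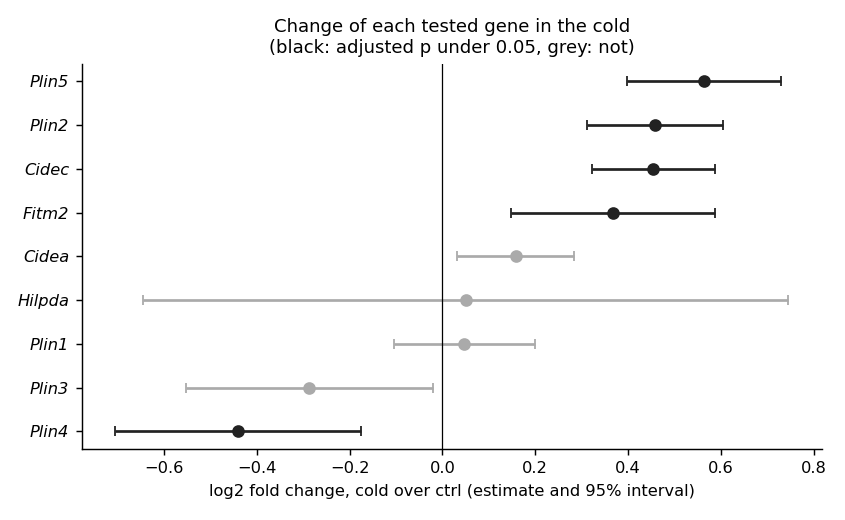
Log2 fold change, cold over ctrl, of the 9 tested genes with the 95% interval, not adjusted for the number of genes, with called genes in black. The intervals of Plin5, Plin2 and Cidec lie wholly above 0.31, and that of Hilpda reaches from -0.64 to 0.74.

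Per length of transcript, Cidea stood far above the rest, at 2507 ± 147 CPM per kb in cold mice and 2248 ± 85.3 CPM per kb in ctrl mice (SD, n = 3 each, lengths weighted by reads). Cidec, at 619 ± 10.4 CPM per kb in cold mice and 452 ± 19.7 in ctrl mice, and Plin2, at 613 ± 30.6 CPM per kb in cold mice and 446 ± 39.9 in ctrl mice, did not differ beyond their spread. Their order turned round with the length of the most-read transcript, at 586 CPM per kb for Cidec and 604 for Plin2 in cold mice. Plin1 followed with 275 ± 27.3 CPM per kb in cold mice and 266 ± 8.12 in ctrl mice, and Plin5 with 128 ± 1.71 in cold mice and 86.3 ± 5.22 in ctrl mice. Fitm2, at 25.2 ± 1.55 CPM per kb in cold mice and 19.6 ± 2.60 in ctrl mice, was followed by Plin3 at 16.7 ± 2.78 in cold mice and 20.3 ± 3.10 in ctrl mice, and the order of the pair held in cold mice but lay within the spread in ctrl mice. Plin4, Hilpda and Fitm1 closed the order with 8.08 ± 1.20, 6.08 ± 1.32 and 4.62 ± 3.23 CPM per kb in cold mice, and with 10.9 ± 1.19, 6.09 ± 2.23 and 0.974 ± 1.26 in ctrl mice. A read stands for 1 cDNA strand whatever its length, and in CPM, without division by length, Plin2 averaged above Cidec and Fitm2 above Plin3 in both groups.

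Ratios between members were formed within each mouse and compared between the groups. Plin2 over Plin1 was 1.72, 1.71 and 1.87 in cold mice 4, 11 and 15, and 1.38, 1.43 and 1.17 in ctrl mice 2, 9 and 14. Plin5 over Plin1 was 0.369, 0.365 and 0.449 in cold mice and 0.278, 0.258 and 0.284 in ctrl mice. Cidea over Cidec was 2.99, 2.73 and 2.62 in cold mice and 3.25, 3.38 and 3.61 in ctrl mice. In none of the 3 ratios did the groups overlap, where 35.1% of all tested genes did not overlap. The share for ratios of other gene pairs was not computed. Each ratio had p = 0.1, the smallest that 3 against 3 mice allow (exact permutation test, two-sided), so none could reach 0.05. Plin2, Plin5 and Cidec were called on their own, whereas Plin1 and Cidea were not. Fitm2 over Fitm1, also planned, was not formed because ctrl mouse 2 had 0 Fitm1 reads.

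Markers of other cells were read beside these changes. Those of white adipocytes summed to 303 to 330.5 CPM in cold mice and to 103 to 165 CPM in ctrl mice. Of 9 markers, Hoxc9, Hoxc10 and Tcf21 had no read, and of the 4 tested, edgeR called Retn, Nnat and Npr3 higher, while Lep was not called. Brown adipocyte markers summed to 18680 to 19206 CPM in cold mice and to 15064 to 17007 CPM in ctrl mice, most of it Ucp1. Of the 9 tested, edgeR called Ucp1, Ppargc1a, Dio2 and Kcnk3 higher (1.29, 5.02, 4.99 and 1.71-fold) and Cox8b lower (1.34-fold). Of the 5 genes common to fat cells, edgeR called Fabp4, a fatty acid carrier, higher (1.43-fold) and Adipoq, the gene of adiponectin, and Lipe lower (1.46-fold and 1.22-fold). Endothelial markers summed to 313 to 329 CPM in cold mice and to 268 to 277 CPM in ctrl mice, and of 7 tested, Kdr was called higher (1.54-fold) and Tek lower (1.58-fold). Markers of pericytes and smooth muscle summed to 175 to 194 CPM in cold mice and to 222 to 248 CPM in ctrl mice. Of 6 tested, Rgs5 was called lower (1.64-fold). Among those not called, Acta2 and Tagln had log2 fold changes of 0.46 and 0.33, and Cspg4, Pdgfrb and Myh11 of -0.47, -0.22 and -0.08. Sums of macrophage markers (81.2 to 111 CPM in cold mice, 57.7 to 84.2 CPM in ctrl mice), of fibroblast markers (230 to 300.5 CPM in cold mice, 275 to 325 CPM in ctrl mice) and of erythroid markers (1910 to 2843 CPM in cold mice, 1574 to 2915 CPM in ctrl mice) overlapped. Among the 6 fibroblast markers tested, Col1a1, Col1a2 and Col3a1 were called lower (1.63, 1.47 and 1.64-fold). Dcn had 128 ± 29.6 CPM in cold mice and 100.5 ± 2.92 CPM in ctrl mice (SD, n = 3 each) and was not called. Dpt and Lum were not called either, at log2 fold changes of 0.45 and -0.70. DESeq2 called 1 fibroblast marker, 1 endothelial marker and 1 marker of pericytes and smooth muscle. No macrophage or erythroid marker was called by edgeR or DESeq2, or had an unadjusted edgeR p under 0.05 (0 of 4 and 0 of 5 tested). What these shifts contributed to the members was not tested.

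Other genes of the droplet were divided into 3 lists by role. Those said to be higher or lower were called by edgeR, with adjusted p-values of up to 0.0495 (Nsdhl). In the list for droplet formation and growth, 2 of 12 tested genes were higher and 2 lower, with a median log2 fold change of 0.13. Over all tested genes, 9.75% were higher and 9.77% lower. Dgat1, which makes triglyceride in the last step of its synthesis, had 326, 329 and 284 CPM in cold mice 4, 11 and 15, and 201, 184 and 203 CPM in ctrl mice 2, 9 and 14. It was 1.60-fold higher in the cold, with no overlap between the groups. Lpin1, a phosphatidate phosphatase, was 1.29-fold higher, at 390 ± 17.9 CPM in cold mice and 304 ± 41.7 CPM in ctrl mice (SD, n = 3 each). Acsl3, which activates fatty acids at young droplets, had 9.66, 14.0 and 11.1 CPM in cold mice and 26.0, 30.1 and 25.6 CPM in ctrl mice. It was 2.34-fold lower in the cold, again without overlap. Agpat2, which adds an acyl chain to lysophosphatidate, was 1.29-fold lower, at 2305 ± 106 CPM in cold mice and 2985 ± 89.8 CPM in ctrl mice. Bscl2, the gene of seipin, and Dgat2 were not called, at log2 fold changes of 0.01 and 0.16. Without ctrl mouse 14, and with the muscle covariate, 1 gene of this list was higher in place of 2.

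In the list for lipid release at the droplet, 3 of 11 genes were higher and 3 lower, beside 9.75% and 9.77% of all tested genes. The median log2 fold change of this list was 0.05. Mgll, which cleaves the last fatty acid from monoacylglycerol, had 941, 1001 and 913 CPM in cold mice and 689, 623 and 646 CPM in ctrl mice. It was 1.46-fold higher in the cold. Ldah, a droplet-bound hydrolase, was 1.46-fold higher, and Aqp7, the channel through which glycerol leaves fat cells, was 1.43-fold higher. Pnpla3, a droplet lipase related to PNPLA2, had 52.2, 52.1 and 31.4 CPM in cold mice and 124, 193 and 132 CPM in ctrl mice, and was 3.28-fold lower. Ces1f, a carboxylesterase, was 3.12-fold lower, and Lipe, the hormone-sensitive lipase, was 1.22-fold lower. Among the genes not called, the log2 fold change was -0.11 for Pnpla2, the lipase that starts on triglyceride, 0.26 for its activator Abhd5 and 0.05 for its inhibitor G0s2. The counts of this list also moved. The number higher was 2 with DESeq2, on flow cell 2 alone and without ctrl mouse 9. It was 4 without ctrl mouse 2 and with the muscle covariate. The number lower was 2 with DESeq2, with the muscle covariate and without cold mouse 4, cold mouse 15 or ctrl mouse 14. It was 4 without ctrl mouse 9.

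In the list for the droplet surface, contacts and trafficking, 2 of 31 tested genes were higher and 4 lower, with a median log2 fold change of -0.02. The 6 called genes were a share close to the 19.5% called over all tested genes. Hsd17b7, an enzyme of sterol synthesis found on droplets, was 1.90-fold higher at a low level, 16.2 ± 5.65 CPM in cold mice and 8.78 ± 3.01 CPM in ctrl mice (SD, n = 3 each), and its groups came as close as 11.6 CPM in both cold mouse 15 and ctrl mouse 2. Cav1, the gene of caveolin-1, was 1.19-fold higher. Cavin1, which builds caveolae together with caveolin, went the other way and was 1.55-fold lower, at 176 ± 16.0 CPM in cold mice and 273 ± 31.9 CPM in ctrl mice. Vps13a, a lipid transfer protein of membrane contacts, was 2.30-fold lower at 5.84 ± 0.813 CPM in cold mice and 13.8 ± 3.88 CPM in ctrl mice. Mettl7a1 and Nsdhl were 1.33-fold and 1.30-fold lower. Cideb, the third CIDE gene and best known in liver, was low, at 5.82 to 15.5 CPM in cold mice and 6.94 to 14.4 CPM in ctrl mice, and was not called. The counts of this list varied with the settings. The number higher was 0 without cold mouse 11, without ctrl mouse 14, on flow cell 2 alone and with DESeq2. It was 1 without cold mouse 4 or ctrl mouse 2, on flow cell 1 alone and with the muscle covariate, 3 without cold mouse 15 and 4 with the length trend as an offset. The number lower was 2 without cold mouse 15 and on flow cell 2 alone, and 1 with DESeq2 or with the muscle covariate.

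**Figure D5:**
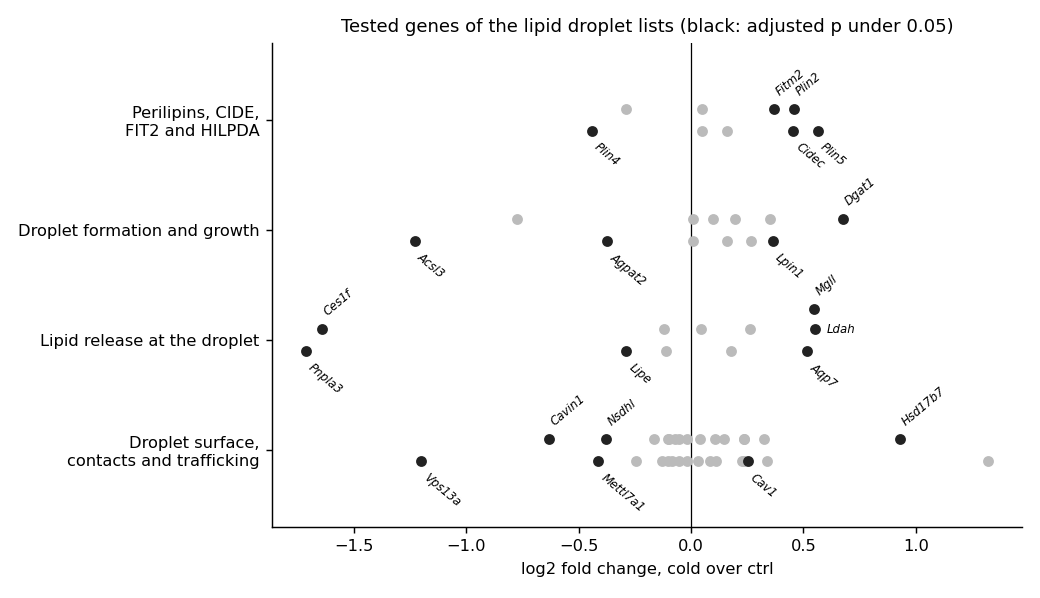
Log2 fold change, cold over ctrl, of each tested gene among the perilipins, CIDE, FIT2 and HILPDA genes and in the 3 lists, with called genes in black and named. The called members lie between -0.44 and 0.56, and the lists reach from -1.71 for Pnpla3 to 0.93 for Hsd17b7 among called genes.

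Across the 6 libraries, the tested genes of at least 30 CPM whose log2 CPM ran most like those of Plin5 were Adtrp (Pearson r = 0.998), Dio2 (0.998) and Pla2g12a (0.997). All 3 were called higher in the cold by edgeR, by 1.83, 2.32 and 0.84 on the log2 scale. Those most like Plin4 were Polr2f (r = 0.996), Cenpx (0.985) and Rpl21 (0.984), of which edgeR called Cenpx alone, lower by 0.70 on the log2 scale. These values describe 6 points that share 2 groups, and they were picked as the highest among many genes.

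Promoter windows of 250 bases before the start were found in RefSeq for 9 of the 10 genes, 12 windows in all. Motifs were searched as letters on both strands. AGGTCA was in 2 windows, those of Plin2 and of the upstream Plin5 start printed above, and in 14% of all promoters. Its direct repeat with 1 base between was in none, and in 0.0335% of all promoters. The palindromic cAMP response element TGACGTCA was in none, and in 1.55% of all promoters. CCAAT was in 4, those of Plin2, Plin3, Plin4 and the upstream Plin5 start, and in 33.8% of all promoters.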

How the data were processed

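The deposited tables hold counts, whole numbers of reads per annotated transcript without normalization, with 1 table for each of the 2 flow cells of a mouse. The authors mapped reads with minimap2 on GRCm38, per the submitters' processing notes. Not given in the sources used here are the annotation, the use of strand and the handling of reads that match several transcripts. Transcripts were matched by identifier to GENCODE M21: 59371 of 59543 matched, and the other 172, with 0.0836% of the reads, were left out. Counts were summed over flow cells and over the transcripts of a gene, so n is the number of mice.

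Genes and transcripts were tested with edgeR 4.0.16 in R 4.3.3 (TMM, filterByExpr, robust glmQLFit, glmQLFTest), with all 6 libraries, no covariate and Benjamini-Hochberg adjustment over all tested features. Calls are adjusted p-values under 0.05, and 3 reads were taken as the level that a count of 0 allows. Such limits cover counting error only. Usage was tested with diffSpliceDGE. CPM are edgeR's, and ± is the SD over mice or, for log2 fold changes, the SE from the F statistic, with 95% intervals. DESeq2 1.42.0 was an alternative, as were other size factors, no filter, each mouse left out, each flow cell alone, mitochondrial genes left out and a muscle marker covariate. A lowess trend on transcript length as an offset was added after seeing the data. The steps were tested on simulated data. Tables and figures were made in Python 3.11.15 with pandas 2.3.3, scipy 1.17.1 and matplotlib 3.10.9, and near copies were sought with minimap2 2.31.

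The members, the lists and the tests were chosen with earlier results of these data known. The text names every member, up to 4 called genes of each droplet list by size of change, and the 3 genes most like the member with the largest rise and the one with the largest fall. Outside that rule, and chosen after their values were seen, are the other called genes of the lists (Aqp7, Lipe, Cav1 and Nsdhl), Bscl2, Dgat2, Pnpla2, Abhd5, G0s2 and Cideb, and the genes of the marker lists.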

Additional observations from a re-analysis of the deposited data

How the results depend on the processing

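Plin2, Plin5 and Cidec kept their direction and their call in all 14 alternatives for gene counts, with edgeR or DESeq2 adjusted p-values of up to 0.00386, 0.0225 and 0.00132. Plin1 and Plin3 were called in none. The number of members called lower was 0 in place of 1 with DESeq2 and on flow cell 1 alone, and 0 to 1 with a mouse left out. Over all genes, DESeq2 called 467 higher and 353 lower, flow cell 2 alone 429 and 408, and the muscle covariate left 558 lower. Over all transcripts, flow cell 2 alone called 466 higher and 446 lower, with 4 member transcripts higher. Without the filter, and in the fits with a mouse left out at the lowest, the number of member transcripts called lower was 0, and 1 at the highest. Usage was called in 3 genes on flow cell 2 alone, none of them a member. Flow cell 2 has fewer reads than flow cell 1. It also has a larger share of mitochondrial reads, 34.1 to 39.3% against 23 to 27.9%. The cause of the changed calls was not tested for any setting.

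Values near 0 changed sign. With a mouse left out, the log2 fold change ranged from -0.23 to 0.31 for Hilpda, from -0.24 to 0.30 for Hilpda-201, from -0.18 to 0.052 for Plin1-201, from -0.24 to 0.0093 for Plin1-202 and from -0.29 to 0.0093 for Plin1-203. It was 0.062 for Plin1-204 on flow cell 1 alone and -0.077 for Plin1-207 on flow cell 2 alone. No paired analysis was possible because no mouse number occurs in both groups. Depth limits Hilpda with 69 reads and Fitm1 with 31 reads over all libraries. Hilpda and Fitm1 passed the filter in none of the fits on 1 flow cell.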
